A study of Mus musculus with 8 samples.

Results

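The genes described here encode fibroblast growth factors (FGF), platelet-derived growth factors (PDGF) and vascular endothelial growth factors (VEGF), together with FGF and PDGF receptors and the Sprouty and Spred inhibitors. They were chosen by symbol alone: Fgf followed by a number, Fgfr1 to Fgfr4, Fgfrl1, Spry1 to Spry4, Spred1 to Spred3, Pdgfa to Pdgfd, Pdgfra, Pdgfrb, Pdgfrl and Vegfa to Vegfd. The rule found 40 of the 19583 genes in the deposited table. Of these, 32 passed the filter on low values, an average FPKM of 0.5 or more across 8 libraries, and 8 secreted FGF ligands did not. FPKM is the number of fragments per kilobase of transcript, scaled to library depth, so levels can be set side by side between genes. Fgf15, Fgf20, Fgf21, Spry3 and Vegfd have no entry under these symbols and were not analysed here.

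RNA came from whole olfactory bulbs at postnatal day 30, from mice of a mixed background of the strains C57BL/6J, 129S6 and CD1. The double mutant group combines hGFAP-Cre with the alleles Sp8 Flox/Flox and Sp9 Flox/Flox and has 4 libraries, and the wild-type littermate group also has 4. In hGFAP-Cre mice a human GFAP promoter drives Cre, so recombination starts in radial glia, which serve as stem cells of the brain, and takes place in astrocytes too. It passes to their descendants, while endothelium arises outside that lineage. Sp8 and Sp9 encode zinc finger factors that bulb interneurons need. Only the double mutants are labelled with the transgene and with floxed alleles, so their own effects and the loss of both factors cannot be told apart. Libraries also carry a letter in the labels: A for double mutant replicates 1 and 2, B for replicates 3 and 4, C for wild-type replicates 1 and 2, and D for replicates 3 and 4. Whether a letter is an animal is not stated, so each p-value measures only spread among these libraries, some of which may be technical.

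FGFs bind receptor tyrosine kinases together with heparan sulfate chains on the cell surface, and the activated receptor passes the signal through adaptor proteins, Ras and the MAP kinases. Sprouty and Spred proteins are induced by this route and dampen it. In brain, FGF signalling supports neural stem cells and astrocytes, PDGF-A acts on oligodendrocyte precursors, PDGF-B released by endothelium recruits pericytes, and VEGF-A drives vessel growth. A separate branch, the FGF homologous factors, stays inside neurons and binds voltage-gated sodium channels in place of FGF receptors.

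Depth and the check of the targeted genes came first. The scaled count columns correspond to between 11888711 and 19040802 fragments per library, and 13112 to 13481 genes reached 1 FPKM in a library. Sp8 stood at 7.22, 6.15, 7.65 and 8.06 FPKM in double mutant libraries and 31.6, 31.2, 30.0 and 29.3 FPKM in wild-type libraries. Sp9 stood at 7.12, 6.24, 6.32 and 7.27 FPKM against 23.1, 24.3, 25.3 and 23.7 FPKM. The comparison changed most of the transcriptome: 65.3% of the 14349 genes tested passed the limma test at an adjusted p below 0.05, 28.8% higher and 36.5% lower in the double mutants, and in 59.1% the groups did not overlap. With upper quartile scaling 5123 genes were higher and 3820 lower, in place of 4127 and 5237. Libraries of 1 letter were more alike than others of their group, with a median chi-square per gene of 1.18 to 1.44 times that of sampling noise against 1.56 to 2.35 times between letters. No bulb marker listed was at 0 in a group. Summed FPKM of the interneuron markers ran from 658.9 to 722.3 in the double mutants and from 1474 to 1509 in the wild type, while that of mitral and tufted cell markers ran from 1095 to 1168 against 839.6 to 864.3.

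Against this background, 15 of the 32 tested growth factor genes were higher in the double mutants, 10 were lower and 7 did not pass the test. The groups did not overlap in 21 of the 32. Fold changes compare double mutant with wild type as differences in log2(FPKM + 0.5). Their median was 0.05 for the 32 genes and -0.04 for all genes tested. The share that passed cannot be read as particular to these genes. Counts in the gene and marker lists below also stand beside 28.8% higher and 36.5% lower of all genes tested. Of the 5 FGF receptors 4 were higher and 1 was lower, all 3 PDGF receptors and all 3 VEGF ligands were higher, and of the 4 FGF homologous factors 3 were lower and none was higher. Of the 7 secreted FGF ligands tested 2 were higher and 3 lower. In bulk tissue, fewer cells of a type and less RNA per cell cannot be told apart, which holds for every value here.

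**Figure D1:**
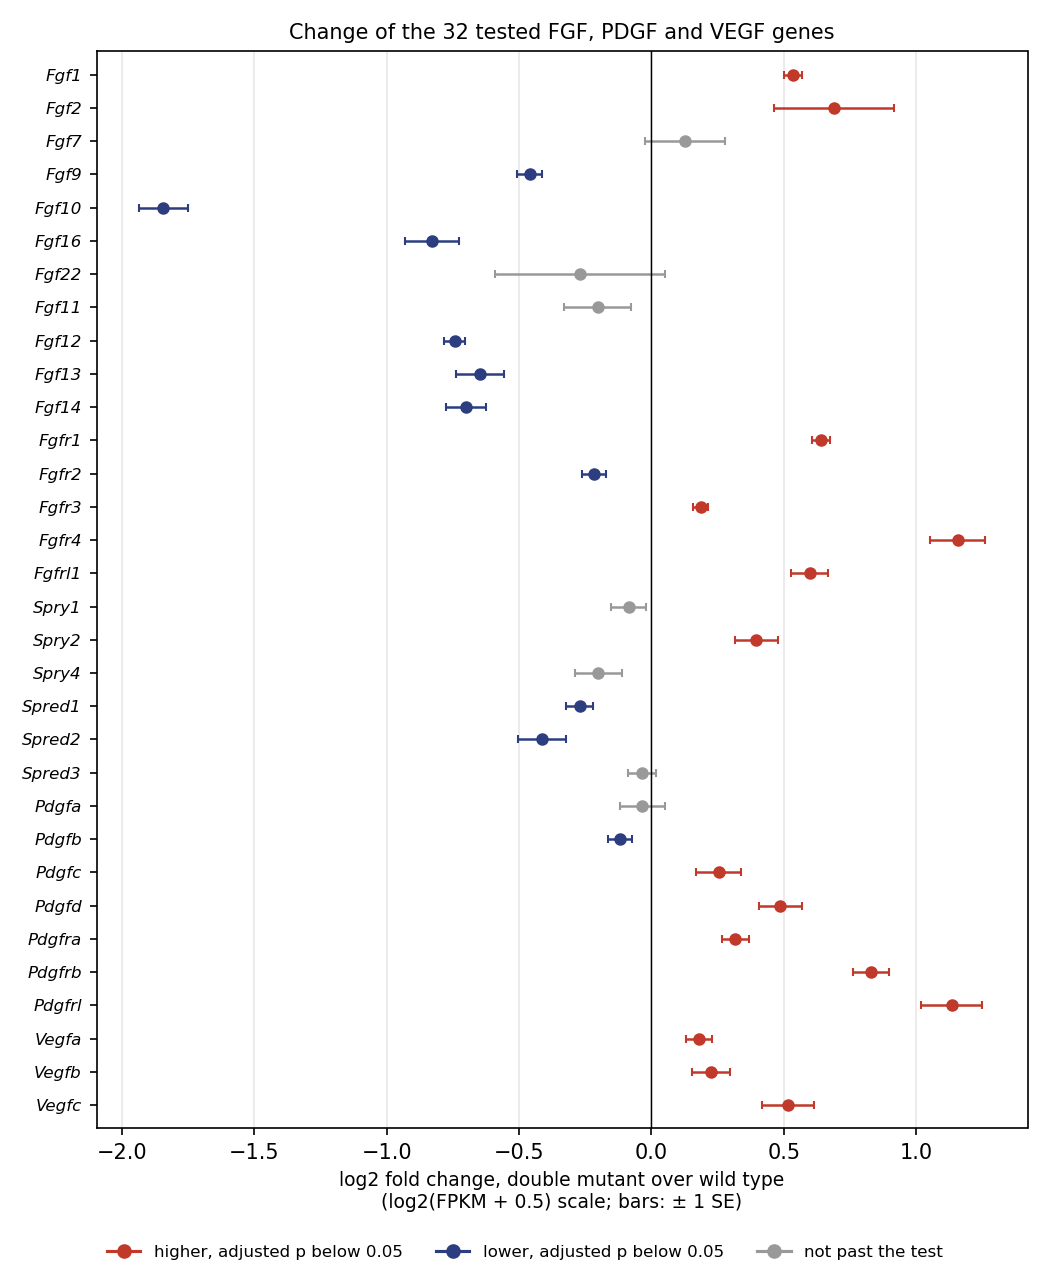
Log2 fold change, double mutant over wild type (x axis), of the 32 tested growth factor, receptor and inhibitor genes (y axis, ordered by family), with bars of 1 standard error from limma. Fgf10 lies farthest to the left at -1.84 and Fgfr4 farthest to the right at 1.16, and the PDGF receptors all lie to the right of 0.

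Promoters are shown for 4 genes, the pair with the largest increases and the pair with the largest decreases among members that passed the test, reached 1 FPKM in the higher group and had a single, exon-free promoter window. The bases are the 250 before the RefSeq start on GRCm38.p6, all on the plus strand: Fgf10 at chr13:118714449-118714698, Fgf9 at chr14:58072436-58072685, Vegfc at chr8:54077282-54077531 and Fgfrl1 at chr5:108693979-108694228. In GENCODE M21 the genes Fgf10 (from 118669791), Fgf9 (from 58070547) and Fgfrl1 (from 108692382) begin before their windows, which thus lie inside the gene. Vegfc begins after its window, at 54077606. Other starts of these genes were not searched. Sp factors are known to bind GC-rich and CACCC boxes, so capitals mark GGGCGG, its reverse complement CCGCCC, and CACCC with its reverse complement GGGTG. The motifs were searched on both strands, and CACCC can share bases with CCGCCC.
Fgf10: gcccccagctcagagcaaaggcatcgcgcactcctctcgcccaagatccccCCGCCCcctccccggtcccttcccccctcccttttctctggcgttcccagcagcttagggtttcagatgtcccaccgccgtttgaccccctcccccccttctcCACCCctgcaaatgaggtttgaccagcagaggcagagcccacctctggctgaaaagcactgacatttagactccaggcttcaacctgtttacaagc
Fgf9: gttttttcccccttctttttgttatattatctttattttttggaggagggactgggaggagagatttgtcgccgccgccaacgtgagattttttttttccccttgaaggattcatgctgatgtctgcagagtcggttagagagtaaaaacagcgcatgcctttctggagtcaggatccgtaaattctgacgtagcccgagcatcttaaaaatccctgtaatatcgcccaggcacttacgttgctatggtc
Vegfc: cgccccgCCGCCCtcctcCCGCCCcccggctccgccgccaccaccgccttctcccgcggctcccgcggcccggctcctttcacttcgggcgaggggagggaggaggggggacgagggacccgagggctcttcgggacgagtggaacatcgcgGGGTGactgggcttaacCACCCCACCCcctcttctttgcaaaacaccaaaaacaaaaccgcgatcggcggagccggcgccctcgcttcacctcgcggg
Fgfrl1: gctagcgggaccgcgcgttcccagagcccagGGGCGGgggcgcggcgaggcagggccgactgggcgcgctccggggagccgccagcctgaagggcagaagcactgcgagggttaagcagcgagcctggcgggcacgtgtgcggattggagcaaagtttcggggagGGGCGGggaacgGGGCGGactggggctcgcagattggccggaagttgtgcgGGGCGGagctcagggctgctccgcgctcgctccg
Fgf10, which was lower, held 1 GC box and 1 CACCC box, and Fgf9, also lower, held 0 of each. Vegfc, which was higher, held 2 GC boxes and 3 CACCC boxes, and Fgfrl1, also higher, held 4 GC boxes and 0 CACCC boxes.

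Over the family, 31 of the 40 genes matched the RefSeq table, with 40 windows. A GC box lay in 67.5% of these windows and a CACCC box in 55.0%, against 56.3% and 58.3% of the 13638 windows of genes tested and 32.7% and 52.0% of all 32851 windows of the same length. Among windows of members that rose, 9 of 13 held a GC box and 7 a CACCC box. Among windows of members that fell, 9 of 14 held a GC box and 7 a CACCC box. Of the 31 genes 26 had 1 window, while Fgf12 and Fgf13 had several, so windows are not independent genes. Over all genes tested, the shares were 56.4% and 62.5% in windows of genes that rose. They were 57.8% and 58.2% in windows of genes that fell. A match is a description of the letters only.

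Among secreted FGF ligands, Fgf10 showed the largest change of the whole family. FGF10 signals mainly through the epithelial form of FGFR2 and is known for its part in branching organs. Fgf10 (chr13:118669791-118792115, GENCODE M21 on GRCm38, plus strand) stood at 0.418, 0.449, 0.341 and 0.331 FPKM in double mutant libraries and at 2.51, 2.42, 2.80 and 2.97 FPKM in wild-type libraries. The groups lie far apart, and the double mutant mean of 0.385 ± 0.058 FPKM (SD, n = 4) was 14.4% of the wild-type mean of 2.68 ± 0.256 FPKM (SD, n = 4). On the log2 scale the difference was -1.84 ± 0.09 (SE; limma, adjusted p = 5.83e-08), and -2.52 with a pseudocount of 0.1 in place of 0.5, because the added 0.5 is large beside the double mutant level. The values rest on about 151 fragments in the double mutants and 924 in the wild type, summed over libraries. Fgf10 passed the filter through the wild-type libraries only, which a gene at 0.385 FPKM in both groups would not have done.

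Fgf9 and Fgf16, closely related ligands, also fell. Fgf9, which neurons and astrocytes release and which acts on FGFR3, stood at 3.81, 3.89, 3.73 and 3.77 FPKM in double mutant libraries and 5.52, 5.38, 5.29 and 5.47 FPKM in wild-type libraries. The 2 sets are narrow and separate, and the double mutant mean was 70.2% of the wild-type mean (log2 fold change -0.46 ± 0.05 SE, adjusted p = 1.04e-05). Fgf16 was a low transcript, at 0.460, 0.591, 0.460 and 0.564 FPKM against 1.23, 1.28, 1.55 and 1.18 FPKM. Its double mutant mean was 39.6% of the wild-type mean on 25 to 79 fragments per library (-0.83 ± 0.10 SE, adjusted p = 3.92e-05). With a pseudocount of 0.1 the change was -1.19.

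Fgf1 moved the other way. FGF1 binds all FGF receptors and was the most abundant secreted FGF gene tested, at 27.8, 26.6, 27.5 and 27.7 FPKM in double mutant libraries and 18.8, 18.6, 18.2 and 19.5 FPKM in wild-type libraries. Every double mutant library lay above every wild-type library, with means of 27.4 ± 0.561 and 18.8 ± 0.530 FPKM (SD, n = 4 each) and a difference of 0.53 ± 0.03 in log2 (SE, limma adjusted p = 3.04e-07). Fgf2, the mitogen widely used to grow neural stem cells, stood at 4.01, 3.45, 2.85 and 3.34 FPKM against 1.06, 3.34, 1.61 and 2.18 FPKM, and the groups overlapped. Its log2 fold change of 0.69 ± 0.23 (SE, adjusted p = 0.0202) rested on 6 to 24 fragments per library. The call was lost without letter A (0.57, adjusted p = 0.139), without letter D (0.67, 0.0819), without double mutant replicate 1 (0.62, 0.0528), without wild-type replicate 3 (0.62, 0.0521) and with the letter as a random block (0.0561). On the scaled count columns the change was 0.45, with a pseudocount of 10, which is large beside these fragment numbers. Exons of Fgf2 overlap those of Nudt6 on the opposite strand over 640 bases, and since no strand setting is stated, reads in that overlap cannot be assigned.

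The remaining ligands were low and, apart from Fgf7 with 32 to 75 fragments per library, at or near the limit of these libraries. Fgf7, a mesenchymal ligand of the FGFR2 epithelial form, stood at 0.646, 0.559, 1.11 and 0.999 FPKM against 0.712, 0.528, 0.802 and 0.775 FPKM (log2 fold change 0.13 ± 0.15 SE, adjusted p = 0.489), and passed without letter A (0.37, 0.0423). Fgf22, which is known for organising presynaptic terminals, stood at 0.764, 1.36, 1.03 and 0.252 FPKM against 2.00, 1.30, 0.837 and 0.449 FPKM, from 1 to 6 fragments per library (-0.27 ± 0.32 SE, adjusted p = 0.482). The groups overlapped in both genes. Fgf22 exons also overlap Rnf126 over 82 bases. Under the filter, Fgf5 had about 70 fragments in the double mutants and 45 in the wild type, summed over 4 libraries each, Fgf23 had 52 and 27, Fgf18 had 36 and 39, and Fgf17 had 14 and 7. Fgf3 had 2 fragments and Fgf4 had 1, all in double mutant replicate 2, Fgf6 had 2 and Fgf8 had 1, all in the wild type. In the limma fit with no filter on low values, none of these 8 genes passed, at adjusted p-values of 0.199 (Fgf6) to 0.784 (Fgf4), and 0 had an unadjusted p under 0.05.

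**Figure D2:**
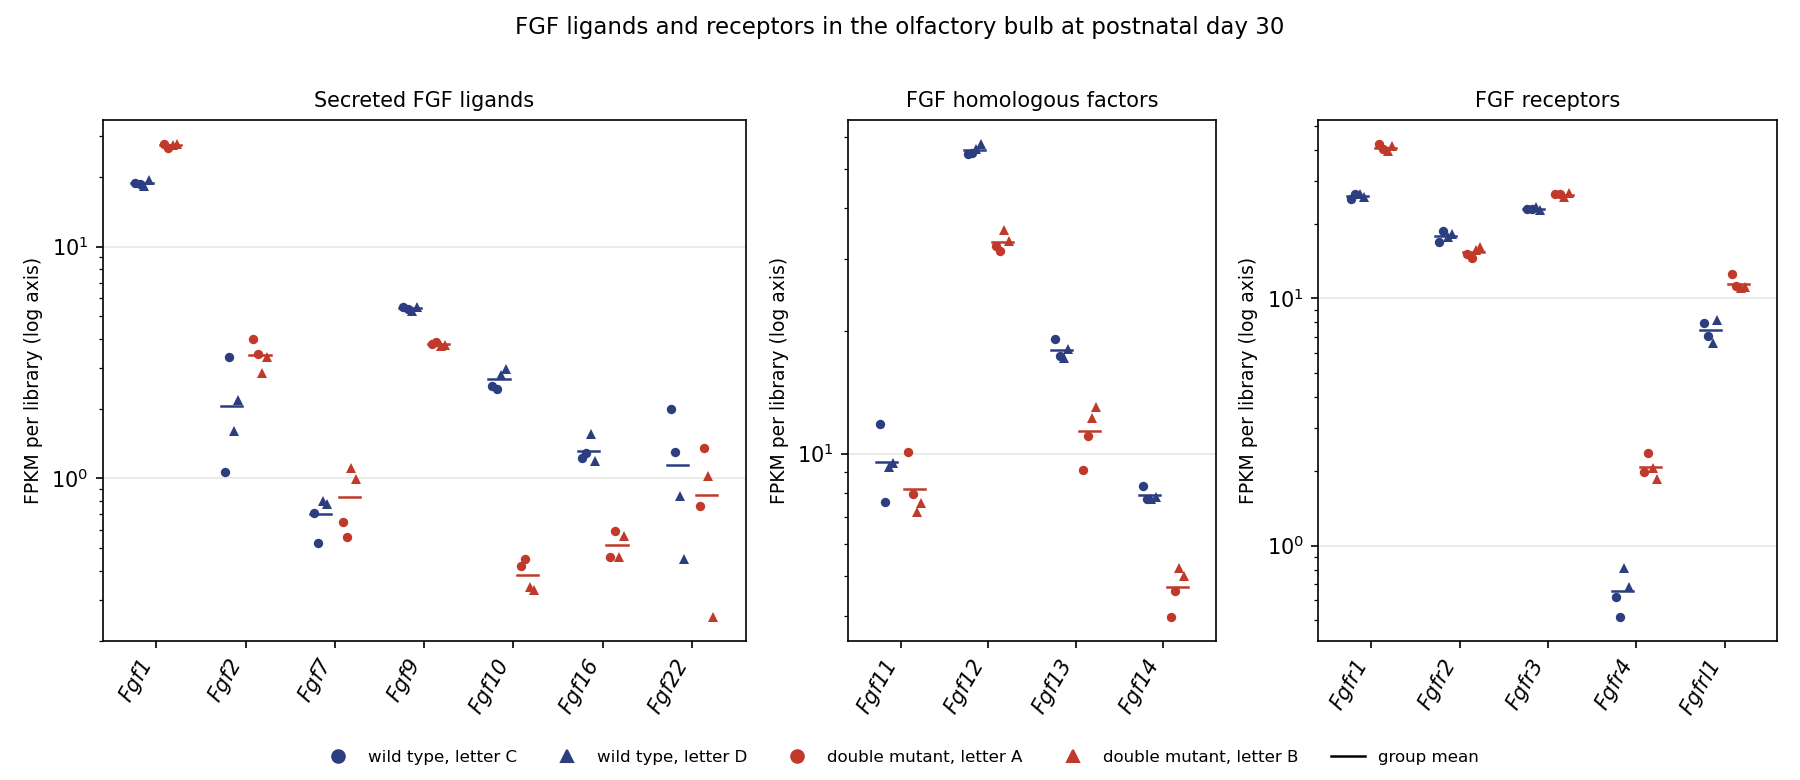
FPKM on a log axis (y axis) of each tested FGF ligand, FGF homologous factor and FGF receptor gene (x axis), 1 point per library, with a bar at each group mean and shapes for the letters. Fgf10 separates the groups most, and all double mutant points of Fgf12 lie below all wild-type points.

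Of the 4 FGF homologous factors 3 fell and Fgf11 did not pass the test. Fgf12 (chr16:28160098-28753068, minus strand) was the most abundant, at 32.4, 31.5, 35.4 and 33.3 FPKM in double mutant libraries and 54.4, 54.8, 56.0 and 57.7 FPKM in wild-type libraries. Its means of 33.1 ± 1.67 and 55.7 ± 1.496 FPKM (SD, n = 4 each) differed by -0.74 ± 0.04 on the log2 scale (SE, limma adjusted p = 8.84e-08). Fgf13 stood at 9.14, 11.04, 12.2 and 13.0 FPKM against 19.1, 17.3, 17.2 and 18.1 FPKM (-0.65 ± 0.09 SE, adjusted p = 0.000113). Fgf14, in which mutations cause a cerebellar ataxia in people, stood at 3.96, 4.59, 5.24 and 4.996 FPKM against 8.32, 7.72, 7.76 and 7.82 FPKM (-0.70 ± 0.08 SE, adjusted p = 1.55e-05). In all 3 genes the groups did not overlap, and the changes were close in size. Fgf11, the fourth of the branch, stood at 10.1, 7.98, 7.19 and 7.57 FPKM against 11.8, 7.59, 9.29 and 9.49 FPKM, with overlap (-0.20 ± 0.13 SE, adjusted p = 0.184). It rested on only 37 to 65 fragments per library. It passed without double mutant replicate 1 (-0.30, 0.0478) and without wild-type replicate 2 (-0.30, 0.0472). Beside these neuronal genes, 7 of 8 interneuron markers and 6 of 7 migrating neuroblast markers were lower, with summed neuroblast markers at 344.6 to 383.3 FPKM against 505.1 to 540.2 FPKM. Tubb3 is the most abundant of the latter, and without it their sum was 43.2% of the wild-type mean. The part of cell composition in the fall of Fgf12, Fgf13 and Fgf14 was not tested.

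Most FGF receptor genes rose. Fgfr1 (chr8:25513654-25575718, plus strand), the main FGF receptor of neurons and neural progenitors, stood at 42.3, 40.1, 39.5 and 41.2 FPKM in double mutant libraries and 25.2, 26.6, 26.5 and 25.6 FPKM in wild-type libraries. Averaged, the double mutant level of 40.8 ± 1.25 FPKM (SD, n = 4) was 157% of the wild-type mean of 26.0 ± 0.679 FPKM (SD, n = 4), or 0.64 ± 0.03 on the log2 scale (SE, limma adjusted p = 8.82e-08). Fgfr4 (chr13:55152640-55168759, plus strand), best known as the liver receptor for bile acid control, was low but had the largest rise of the family, close to that of Pdgfrl (1.13). It stood at 1.98, 2.37, 2.07 and 1.86 FPKM against 0.619, 0.512, 0.812 and 0.679 FPKM, so that the double mutant mean was 316% of the wild-type mean (1.16 ± 0.10 SE, adjusted p = 3.99e-06). Its libraries held 19 to 93 fragments. With a pseudocount of 0.1 the Fgfr4 change was 1.53, because the added 0.5 is large beside the wild-type level. Over the alternative fits Fgfr4 ran from 0.89 to 1.53 and Pdgfrl from 0.99 to 1.28, so their order depends on the fit.

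Fgfrl1 encodes a receptor-like protein that lacks the kinase domain. It stood at 12.5, 11.2, 11.04 and 11.2 FPKM against 7.93, 7.02, 6.61 and 8.15 FPKM (0.60 ± 0.07 SE, adjusted p = 2.83e-05). Fgfr3, an astrocyte receptor in the postnatal brain, stood at 26.5, 26.5, 25.8 and 26.6 FPKM against 23.1, 23.0, 23.5 and 22.9 FPKM, a small change without overlap (0.19 ± 0.03 SE, adjusted p = 0.000271). Beside it, all 8 astrocyte markers were higher. Their sum reached 144.7% of the wild-type mean (157.4% without Aldoc, the most abundant), while Fgfr3 reached 114.0%. Single astrocyte markers ran from 113.7% (Slc1a2) to 204.2% (Aqp4), with a median of 147.8%. Fgfr2, which oligodendrocytes and astrocytes express, was the receptor that fell, at 15.1, 14.5, 15.6 and 16.2 FPKM against 16.9, 18.7, 17.7 and 18.2 FPKM (-0.22 ± 0.05 SE, adjusted p = 0.00180). The decrease was -0.13 with upper quartile scaling and -0.14 with quantile normalization. Fgfr2 exons share 314 bases with Ctbp2 on the same strand, so its reads there cannot be assigned.

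The mix of receptor transcripts differed between the groups. Of the summed FPKM of Fgfr1 to Fgfr4, Fgfr1 made up 47.6% to 49.3% in the double mutants and 38.0% to 38.7% in the wild type. Fgfr2 made up 17.4% to 18.9% against 25.7% to 27.2%, Fgfr3 30.9% to 31.7% against 33.5% to 35.0%, and Fgfr4 2.17% to 2.84% against 0.74% to 1.19%. No range overlapped between the groups, and the order of the 4 levels was the same in both. These shares follow from the values above and were not tested separately.

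Sprouty and Spred genes moved in both directions. Spry2 (chr14:105891947-105896819, minus strand) stood at 16.4, 15.4, 19.5 and 20.9 FPKM in double mutant libraries and 13.5, 13.4, 13.7 and 13.4 FPKM in wild-type libraries. Double mutant replicates 3 and 4, both of letter B, were the highest (log2 fold change 0.40 ± 0.08 SE, limma adjusted p = 0.00156), and the change was 0.23 without letter B. Spred1, the gene mutated in Legius syndrome, stood at 23.5, 23.3, 26.1 and 24.99 FPKM against 28.1, 28.4, 30.4 and 31.7 FPKM (-0.27 ± 0.05 SE, adjusted p = 0.000754), and at -0.18 with quantile normalization. Spred2 stood at 20.3, 18.5, 23.6 and 25.1 FPKM against 27.4, 27.2, 31.4 and 30.7 FPKM (-0.41 ± 0.09 SE, adjusted p = 0.00207), and the change was -0.25 without letter A, which held the lowest libraries.

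The other inhibitors did not pass the test. Spry1 stood at 5.53, 5.09, 4.64 and 4.59 FPKM against 5.14, 5.50, 5.05 and 5.47 FPKM (-0.09 ± 0.07 SE, adjusted p = 0.266), and passed without letter A (-0.18, 0.0366). Spry4, a Sprouty gene often read as a reporter of FGF signalling, stood at 3.94, 4.28, 4.36 and 5.19 FPKM against 4.68, 4.85, 5.87 and 5.30 FPKM (-0.20 ± 0.09 SE, adjusted p = 0.0666). It passed without double mutant replicate 4 (-0.27, adjusted p = 0.0152), wild-type replicate 1 (-0.24, 0.0461), letter B (-0.30, 0.0243) or letter C (-0.31, 0.0317) and with quantile normalization (-0.24, 0.0334). Spred3 stood at 6.78, 7.26, 7.33 and 7.40 FPKM against 7.45, 7.31, 6.83 and 7.99 FPKM (-0.04 ± 0.05 SE, adjusted p = 0.588), and its sign turned with the scaling (0.01 with median ratios). Its exons overlap Ggn on the opposite strand over 202 bases.

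The 3 PDGF receptor genes all rose. Pdgfrb, which marks pericytes, stood at 12.7, 13.2, 10.996 and 10.9 FPKM in double mutant libraries and 6.41, 6.87, 6.15 and 6.58 FPKM in wild-type libraries (means 11.97 ± 1.18 and 6.50 ± 0.300, SD, n = 4 each, log2 fold change 0.83 ± 0.07 SE, limma adjusted p = 1.89e-06). Pdgfra (chr5:75152292-75198215, plus strand), which marks oligodendrocyte precursors and fibroblasts, stood at 10.02, 9.68, 8.71 and 9.24 FPKM against 7.12, 7.58, 7.31 and 7.80 FPKM (0.32 ± 0.05 SE, adjusted p = 0.000360). Pdgfrl (chr8:40926212-40990785, plus strand), a secreted receptor-like protein without a kinase, stood at 5.30, 6.68, 4.64 and 4.96 FPKM against 1.80, 2.37, 2.51 and 2.03 FPKM on 39 to 169 fragments per library (1.13 ± 0.12 SE, adjusted p = 1.01e-05). No library of one group reached the other in any of the 3 genes.

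Most markers of the cells that carry these receptors rose too. Pdgfrb reached 184.1% of its wild-type mean beside 176.7% for summed pericyte and smooth muscle markers, of which 6 of 8 rose, with sums of 233.9 to 250.1 FPKM against 129.7 to 137.9 FPKM. Vtn, the most abundant of these markers at 195.0%, carried most of that sum. The other 7 summed to 132.7%, and Rgs5, at 119.5%, was the most abundant of them. Single markers of this list ran from 115.5% (Kcnj8) to 219.9% (Anpep), with a median of 154.8%. Kcnj8 and Abcc9 (119.4%) did not pass the test. Pdgfra reached 126.4% beside 135.9% for summed oligodendrocyte precursor markers, of which 7 of 7 rose. Their sums were 186.4 to 196.4 FPKM against 138.5 to 143.3 FPKM, and 149.6% without Olig1, the most abundant. Single precursor markers ran from 114.9% (Olig1) to 211.5% (Sox10), with a median of 131.0%. Pdgfrl reached 247.5% beside 194.2% for meningeal and fibroblast markers, of which 8 of 8 rose, with sums of 170.7 to 193.5 FPKM against 84.6 to 99.3 FPKM, and 198.0% without Dcn, the most abundant. Rises were not limited to these cell types. Summed markers also reached 145.3% for microglia (5 of 6 rose) and 218.1% for olfactory ensheathing cells (4 of 4 tested). They reached 178.3% for olfactory sensory neurons (4 of 4) and 132.9% for mitral and tufted cells (6 of 7). Of the oligodendrocyte markers 2 of 6 rose and 1 fell, with a sum at 116%. Interneuron and neuroblast markers mostly fell, as given above. Whether cell composition has a part in the receptor changes was not tested.

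Of the 4 PDGF ligand genes 2 rose, 1 fell and 1 did not pass the test. Pdgfd, a ligand of the beta receptor, stood at 3.96, 3.54, 3.97 and 4.27 FPKM against 2.85, 2.69, 2.25 and 2.89 FPKM, without overlap (0.49 ± 0.08 SE, adjusted p = 0.000411). Pdgfc, a ligand of the alpha receptor, stood at 3.38, 3.77, 4.03 and 4.14 FPKM against 3.09, 2.70, 3.56 and 3.20 FPKM, with overlap (0.25 ± 0.09 SE, adjusted p = 0.0230). Its call was lost in 7 of 23 alternative fits, among them those without double mutant replicate 3 (0.23, adjusted p = 0.0577), double mutant replicate 4 (0.22, 0.0642), wild-type replicate 2 (0.19, 0.0652), letter B (0.17, 0.193) and letter C (0.16, 0.183). Pdgfb, the endothelial ligand, stood at 8.61, 8.91, 8.73 and 8.51 FPKM against 9.41, 9.06, 9.23 and 10.2 FPKM.

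Its change of -0.12 ± 0.05 (SE, limma adjusted p = 0.0452) was the smallest that passed, although the groups did not overlap. The call on Pdgfb was lost in 19 of 23 alternative fits, with adjusted p-values of up to 0.508, including those without any 1 of the 4 double mutant libraries (0.0525 to 0.0979) or without wild-type replicate 1 (0.0728), 3 (0.0548) or 4 (0.125). Pdgfb was -0.04 with upper quartile scaling. Pdgfa, made by neurons and astrocytes, stood at 14.8, 18.4, 16.2 and 17.2 FPKM against 16.4, 20.1, 15.4 and 16.4 FPKM (-0.03 ± 0.09 SE, adjusted p = 0.746).

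All 3 VEGF ligand genes were called higher, and the calls on Vegfa and Vegfb were lost in some alternative fits. Vegfa (chr17:46016993-46032369, minus strand), the main angiogenic ligand, stood at 36.2, 33.1, 37.7 and 38.8 FPKM in double mutant libraries and 30.7, 31.8, 33.7 and 32.2 FPKM in wild-type libraries (0.18 ± 0.05 SE, limma adjusted p = 0.00891). Double mutant replicate 2 lay below wild-type replicate 3, so the groups overlapped. The call was lost when the letter means were compared (adjusted p = 0.0502), without letter B (0.11, 0.0901) and without letter C (0.14, 0.0855). Vegfb, which has been linked to fatty acid uptake by endothelium, stood at 51.5, 46.3, 40.7 and 40.6 FPKM against 37.8, 41.1, 36.5 and 37.0 FPKM (0.23 ± 0.07 SE, adjusted p = 0.0195). Here letter A was the higher, and the change was 0.09 without letter A (adjusted p = 0.134) and 0.36 without letter B.

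The Vegfb call was also lost when letter means were compared (0.0766), without letter D (0.143), without double mutant replicate 2 (0.21, 0.0515) and without wild-type replicate 3 (0.21, 0.0511). Vegfc, the lymphatic ligand, which also acts on neural progenitors, stood at 1.97, 1.57, 2.16 and 2.07 FPKM against 1.35, 1.19, 1.18 and 1.09 FPKM, without overlap. Its change of 0.52 ± 0.10 (SE, limma adjusted p = 0.000842) was the largest of the VEGF ligand genes, and it was 0.34 with quantile normalization.

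**Figure D3:**
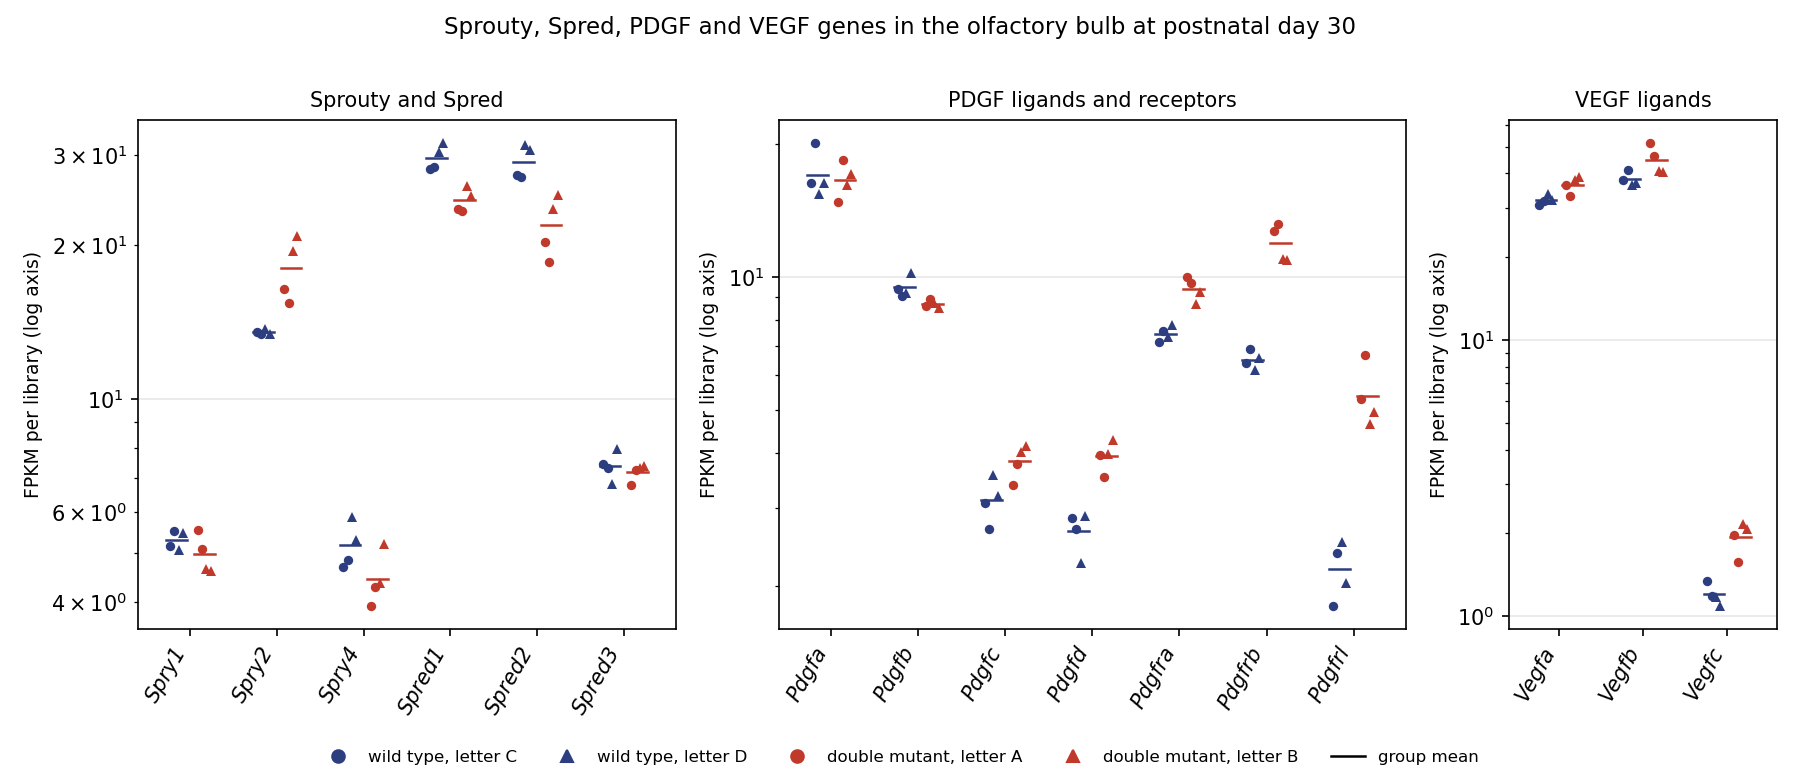
FPKM on a log axis (y axis) of each tested Sprouty, Spred, PDGF and VEGF gene and PDGF receptor gene (x axis), 1 point per library, with a bar at each group mean and shapes for the letters. Pdgfrb and Pdgfrl separate the groups, and the points of Pdgfa and Spred3 overlap.

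Of 6 receptor and partner genes of VEGF outside the symbol rule 5 rose and Flt4 did not pass. The median log2 fold change of the 6 was 0.49 beside -0.04 for all genes tested. Kdr, the main VEGF-A receptor of endothelium, had means of 6.70 ± 0.460 and 4.45 ± 0.193 FPKM (SD, n = 4 each, log2 fold change 0.54). Flt1, a decoy-like VEGF receptor, rose by 0.35, Pgf, another Flt1 ligand gene, by 0.79, and the coreceptor genes Nrp2 by 0.62 and Nrp1 by 0.43. Flt4, the VEGF-C receptor gene of lymphatic vessels, had means of 0.963 ± 0.129 and 0.835 ± 0.138 FPKM and did not pass the test (0.13). All 8 endothelial markers rose, with sums of 185.6 to 212.5 FPKM against 118.2 to 130.2 FPKM, 159.7% of the wild-type mean, beside 150.6% for Kdr and 129.1% for Flt1. Cldn5, the most abundant marker at 205.9%, carried much of that sum. The other 7 summed to 129.5%, and Ly6c1, at 118.0%, was the most abundant of them. Single endothelial markers ran from 113.7% (Pecam1) to 205.9% (Cldn5), with a median of 152.1%. The part of endothelial RNA in these rises was not tested. Nrp1 and Flt4 were named after their values were seen.

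**Figure D4:**
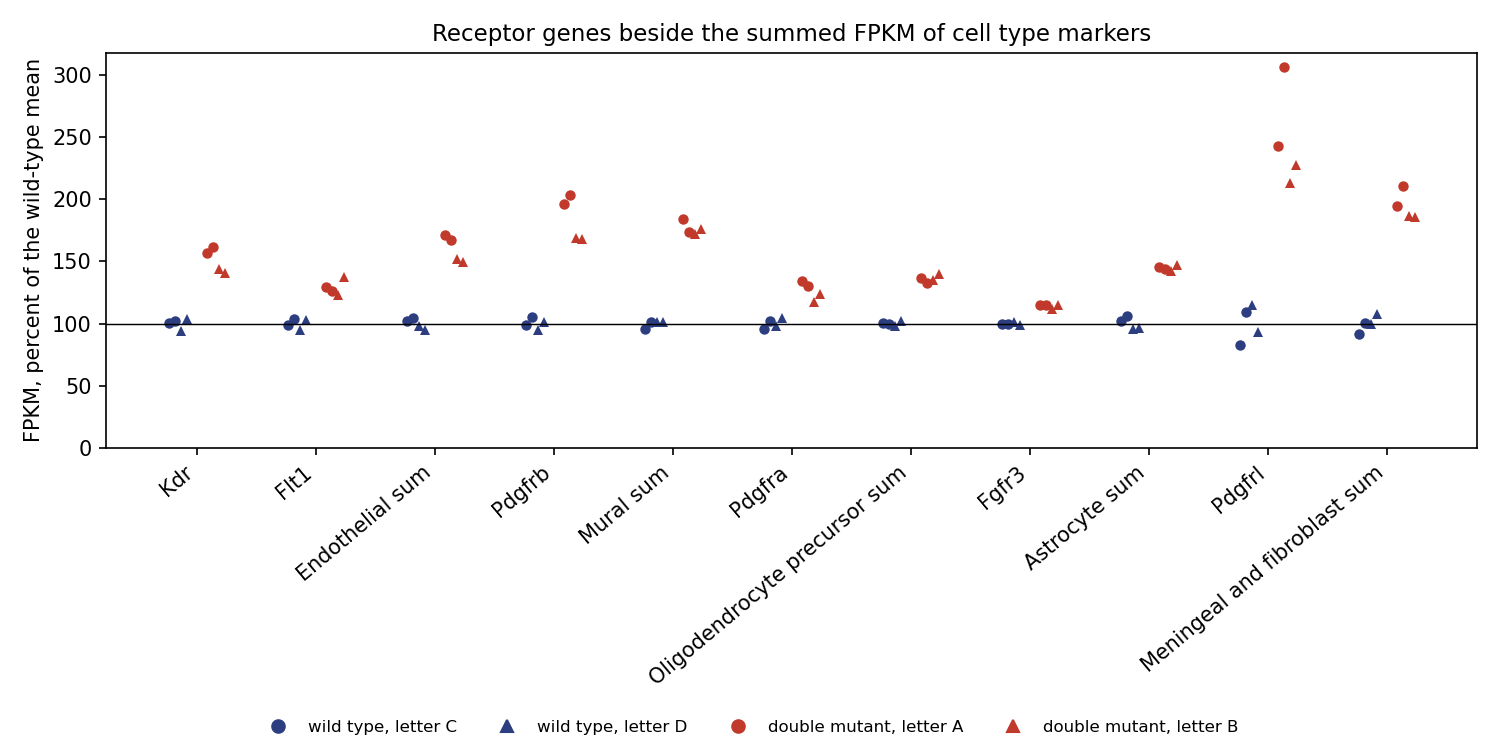
Level in percent of the wild-type mean (y axis) of Kdr, Flt1, Pdgfrb, Pdgfra, Fgfr3 and Pdgfrl and of the summed markers of the cell type each is known from (x axis), 1 point per library, with shapes for the letters. In each set the receptor and the markers are both above 100% in all 4 double mutant libraries.

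Of 7 tested genes known to respond to VEGF in endothelium, 5 rose and 1 fell, with a median log2 fold change of 0.41. With quantile normalization, with letter means, without letter A and without letter C, 3 rose. Apln, a vessel-growth peptide, rose by 0.53, the progenitor and endothelial antigen gene Cd34 by 0.46 and Nos3, endothelial nitric oxide synthase, by 0.41. Dll4, a Notch ligand of sprouting vessels, was called at 0.43 but not without wild-type replicate 1 (adjusted p = 0.0504), wild-type replicate 2 (0.0534), letter A (0.22, 0.141) or letter C (0.146), nor with quantile normalization (0.27, 0.136) or letter means (0.0674). Robo4 was called at 0.28, but not without letter A (0.0761) or letter C (0.0695), nor with quantile normalization (0.13, 0.163) or letter means (0.0549). Plvap, a protein of fenestrated vessels, was the gene that fell, by 0.27, and its call was lost in 6 of 23 alternative fits, among them that without wild-type replicate 1 (adjusted p = 0.0577). Dll4, Robo4 and Plvap were named after their values were seen.

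The relay from receptor to MAP kinase held large decreases, clear increases and members with little change. Of 28 tested relay genes 6 rose, 12 fell and 10 did not pass, and the median log2 fold change was -0.08. Over all genes tested 28.8% were higher and 36.5% lower. Grb2, the adaptor that couples receptors to Ras activation, had means of 53.1 ± 1.89 FPKM in double mutant libraries and 121 ± 3.51 FPKM in wild-type libraries (SD, n = 4 each, log2 fold change -1.18, limma adjusted p = 2.87e-09). Map2k1, the kinase MEK1, had means of 63.8 ± 3.27 and 150.4 ± 3.40 FPKM (-1.23, adjusted p = 3.43e-09). Among the genes that rose, Gab1 had means of 13.8 ± 0.276 and 8.01 ± 0.122 FPKM (0.75, limma adjusted p = 5.24e-08). Shc1 had means of 9.35 ± 0.585 and 6.08 ± 0.476 FPKM (0.58, limma adjusted p = 1.89e-05). Gab1 and Shc1 were named after their values were seen. Map2k2, the kinase MEK2, and Mapk3, the kinase ERK1, were named after their values were seen and differed little. Map2k2 had means of 26.1 ± 0.701 and 25.3 ± 1.13 FPKM and did not pass (0.05), though it passed with upper quartile scaling (0.13) and quantile normalization (0.14). Mapk3 had means of 99.7 ± 4.17 and 93.0 ± 2.19 FPKM and was called at 0.10 (adjusted p = 0.0274). That call was lost in 9 of 23 alternative fits, among them those without double mutant replicate 4 (adjusted p = 0.0737) and without wild-type replicate 1 (0.0712), 3 (0.0603) or 4 (0.0565), and the change was 0.06 without letter B.

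**Figure D5:**
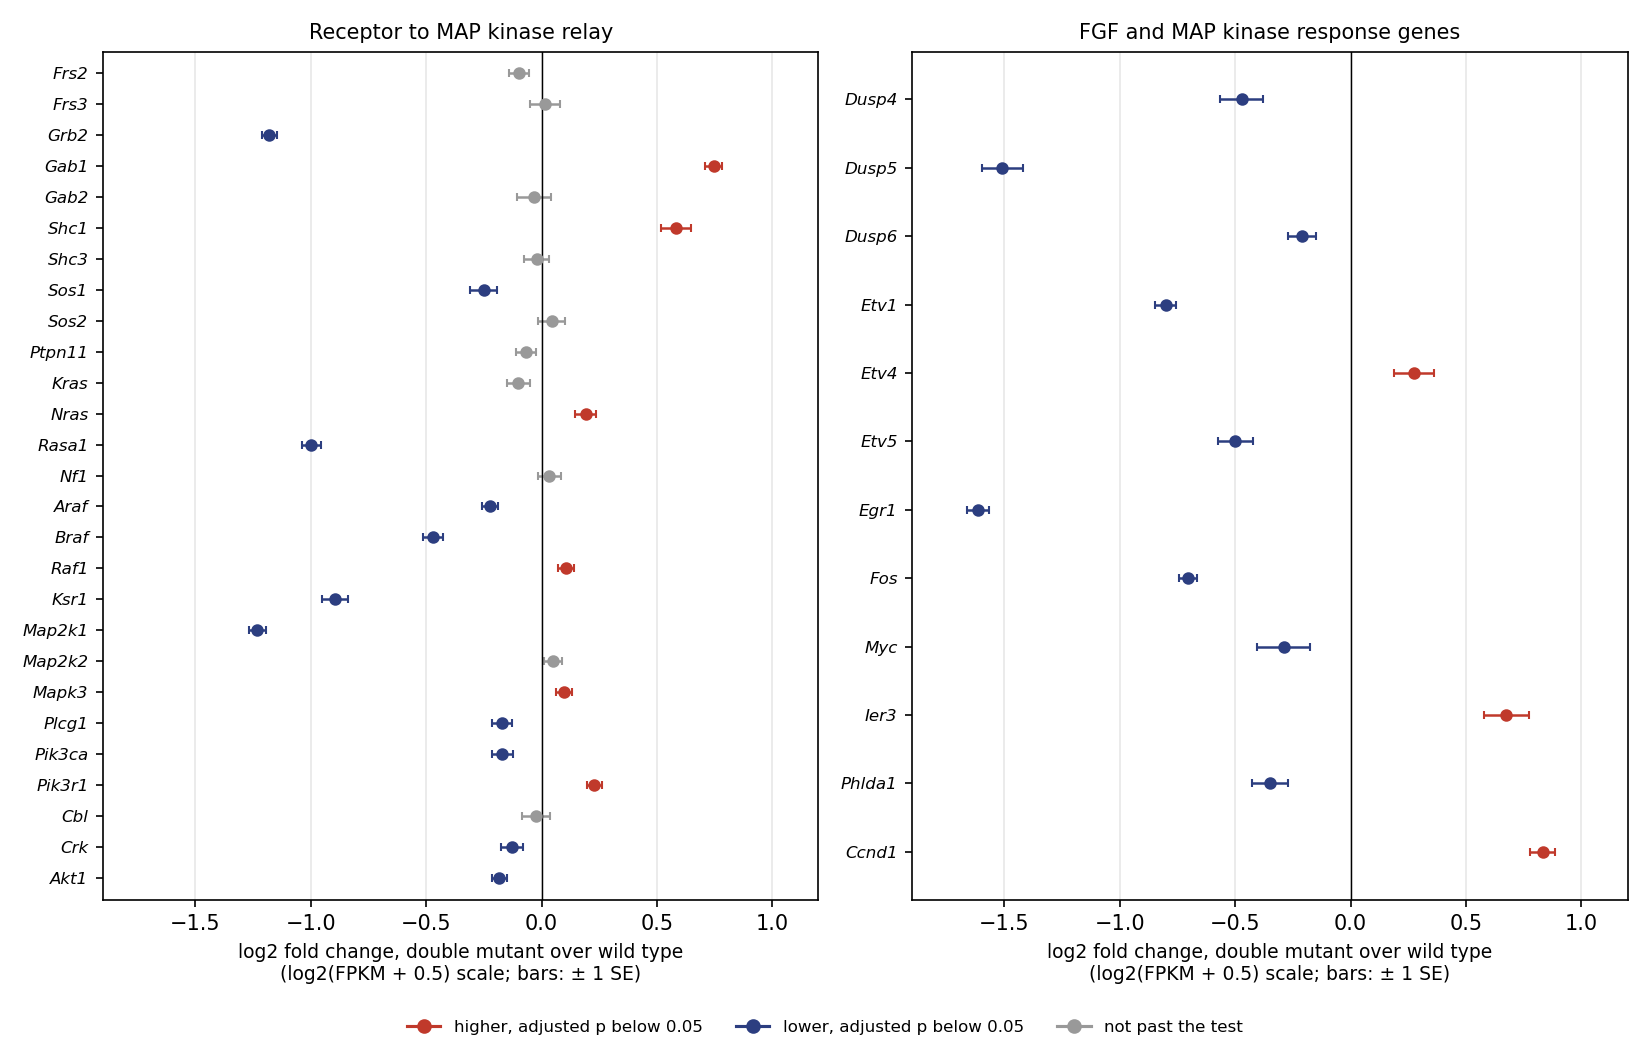
Log2 fold change, double mutant over wild type (x axis), of the genes of the receptor to MAP kinase relay and of the FGF and MAP kinase response list (y axis), with bars of 1 standard error from limma. 1 relay gene is not shown. Grb2 and Map2k1 lie beyond -1 in the relay, and Egr1 lies at -1.62 among the response genes.

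Genes known to be induced by FGF and MAP kinase signalling mostly fell: 9 of 12 fell and 3 rose. Their median log2 fold change was -0.41, and of all genes tested 36.5% fell and 28.8% rose. Egr1, an immediate early transcription factor also driven by neuronal activity, had means of 38.8 ± 2.26 and 119.8 ± 5.93 FPKM (-1.62, limma adjusted p = 2.87e-09). Fos, another immediate early gene, fell by 0.70, Etv1, an ETS factor that bulb interneurons also carry as a subtype gene, by 0.80, and its relative Etv5 by 0.50. The genes that rose were Ccnd1, the cell cycle gene of cyclin D1, by 0.83, Ier3 by 0.68 and Etv4 by 0.27. Etv4 was not called without double mutant replicate 2 (adjusted p = 0.0516), letter A (0.15, 0.184) or letter D (0.147). Etv4, Etv5, Ier3 and Ccnd1 were named after their values were seen. Interneuron markers moved with this list as given above, and their part was not tested.

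Partner proteins of FGF divided. Of 9 tested, 4 rose, 2 fell and 3 did not pass, with a median log2 fold change of 0.18. Kl, the klotho coreceptor for FGF23 that choroid plexus makes in quantity, had means of 2.84 ± 0.703 and 1.09 ± 0.101 FPKM (SD, n = 4 each, 1.05). Il17rd, the membrane inhibitor also called Sef, was higher by 0.43 (0.24 with quantile normalization). The carrier gene Fgfbp1 rose by 0.38 (0.22 without letter B) and Fgfbp3 by 0.23, which was not called without letter B (adjusted p = 0.0954) or letter D (0.0532). Flrt1, a membrane partner of FGF receptors, fell by 0.35, and Fgfr1op2 by 0.16, which did not pass with upper quartile scaling (-0.07, adjusted p = 0.0848). Fibp, an FGF1-binding protein, was at 21.3 ± 0.916 and 21.5 ± 1.57 FPKM (-0.01). Fgfbp1, Fgfbp3 and Fgfr1op2 were named after their values were seen.

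Heparan sulfate genes, which make or carry the chains that FGFs need, also divided: of 27 tested, 10 rose, 6 fell and 11 did not pass, with a median log2 fold change of 0.03. With upper quartile scaling 15 rose and 4 fell, and on the scaled count columns 14 rose and 5 fell. Among the carriers, Gpc6 rose by 1.001, Sdc4 by 0.82, Sdc2 by 0.66 and Sdc3, the most abundant of the list at 91.8 ± 2.37 against 66.8 ± 0.408 FPKM, by 0.45. Hs6st2, a sulfotransferase that modifies the chains and was named after its values were seen, had means of 6.53 ± 0.628 and 13.96 ± 0.595 FPKM (-1.04).

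The hypoxia list holds genes of hypoxia-inducible factor (HIF) subunits beside response genes. Vegfa, the classic response gene, is not in it. This list showed no common direction: 3 of 12 rose, 3 fell and 6 did not pass, with a median of 0.00. With upper quartile scaling 7 rose. Epas1, the HIF-2 alpha gene that endothelium and astrocytes express, rose by 0.67 and Ndrg1 by 0.42, while Egln3 fell by 0.58, Ankrd37 by 0.53 and Ldha by 0.33. Adm was called at 0.23, but not in 11 of 23 alternative fits, among them those without double mutant replicate 3 (0.14, adjusted p = 0.0975), wild-type replicate 1 (0.111), 3 (0.064) or 4 (0.0641). Pgk1, the most abundant, was at 197.9 ± 2.62 and 199.1 ± 1.76 FPKM and did not pass (-0.01), though it passed in the other direction with upper quartile scaling (0.08, adjusted p = 0.0106). Ankrd37, Ldha and Adm were named after their values were seen.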

How the data were processed

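FPKM values per library were computed by the authors and deposited in a single series table. GRCm38.p4, TopHat and Cufflinks 2.1.1 are listed, without roles, per the submitters' processing notes, with annotation and strand setting not given in the sources used here. Each library also has another column, deposited as a scaled count signal, which held multiples of a fixed step in 98.5% to 98.9% of low values (within 0.02 of a step). Its total over the step gave the approximate fragments, 11888711 to 19040802 per library. Some values were not whole, so no count model was used. Low fragment numbers limit the precision of the rarest genes.

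Groups were taken from the labels. In 14349 genes averaging 0.5 FPKM or more, limma 3.58.1 (R 4.3.3) was run on log2(FPKM + 0.5), group as the only term, with trended moderated variances. Two-sided p-values were adjusted by Benjamini-Hochberg over the 14349 genes and called below 0.05. The 23 alternatives changed the pseudocount, filter, scaling, measure, block or libraries. On the scaled count columns the pseudocount was 10. All 40 symbols of the rule were named, and of each pathway list the 3 genes with the smallest p and the most abundant one. Of the relay list 1 gene enters the counts and is otherwise not reported here. Other genes are stated to be named after their values were seen. The members and lists were chosen with earlier results of these data known. Gene positions (GENCODE M21, GRCm38) are counted from 1, and promoter windows are from RefSeq on GRCm38.p6.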

Additional observations from a re-analysis of the deposited data

Results flagged for a closer look

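In 154 groups of 4 libraries, 1 library stood apart from the other 3 in 5, by a gap to its neighbour that exceeded Dixon's critical share of the range, and chance gives this in about 1 of 20 groups. For Fgf14 it was wild-type replicate 1, at 8.32 FPKM against 7.72 to 7.82 FPKM in the others. Fgfrl1 had double mutant replicate 1 at 12.5 FPKM against 11.04 to 11.2 FPKM. For Fos, wild-type replicate 3 was at 41.1 FPKM against 37.8 to 38.0 FPKM. Sdc3 had double mutant replicate 1 at 95.3 FPKM against 90.2 to 91.0 FPKM. For Adm, double mutant replicate 3 was at 5.10 FPKM against 3.93 to 3.98 FPKM.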

How the results depend on the processing

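All 25 members that passed kept their direction in each of the 23 alternatives that gave them a value, and 20 passed in every one. The exceptions, Fgf2, Pdgfb, Pdgfc, Vegfa and Vegfb, are given beside their values. Leaving out 1 library gave 13 to 15 members higher, 9 to 11 lower, 3858 to 3969 of all genes higher and 4800 to 5095 lower. When letter means were compared, 12 members were higher and 9 lower, with 3491 of all genes higher and 4202 lower. Upper quartile scaling turned the split of all calls from 4127 higher and 5237 lower to 5123 and 3820, with a median over all genes of 0.04. Over the pathway lists it moved 36 higher and 33 lower to 49 and 24. The replicate numbers did not pair the libraries (same-number correlations of deviations -0.05, 0.00, 0.01 and -0.03), and not every library correlated best with its own number. With a replicate block, 15 members were called higher and 11 lower, 4045 higher and 5144 lower among all genes, 37 and 33 in the pathway lists. In it Pdgfb was lost (adjusted p = 0.0811) and Fgf11 (0.0425) and Spry4 (0.0387) passed.

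Some genes that had not passed changed sign. With upper quartile scaling Pdgfa was 0.050, Spred3 0.045, Fibp 0.073 and Pgk1 0.078. With median ratios Pdgfa was 0.010, Spred3 0.007, Fibp 0.032 and Pgk1 0.037. With quantile normalization Fgf7 was -0.069, Pdgfa 0.041, Fibp 0.078, Pgk1 0.014 and Flt4 -0.056. On the scaled count columns Spred3 was 0.012, Fibp 0.016 and Pgk1 0.026. Without letter A Pgk1 was 0.005. Without letter B Fgf7 was -0.123, Spry1 0.005 and Fibp 0.004. Without letter C Fgf22 was 0.186 and Pdgfa 0.060. Without letter D Fibp was 0.019 and Pgk1 0.001. Leaving out single libraries gave Pdgfa -0.083 to 0.046 and Fibp -0.055 to 0.021. The cause was not tested. Low fragment numbers limit Fgf2 and Fgf22.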
